A study of Mus musculus with 26 samples.

Results

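The genes described are 8 components of the antibody and lipid sensing pathway of phagocytes that signals through immunoreceptor tyrosine-based activation motifs (ITAMs). They were chosen by gene symbol, with earlier results of these data known, and each matched 1 of the 39179 Ensembl gene entries counted in every library. They are the adaptors Tyrobp (DAP12) and Fcer1g (the common Fc receptor gamma chain), the lipid receptor Trem2, the kinase Syk, the activating IgG receptors Fcgr1, Fcgr3 and Fcgr4, and the inhibitory IgG receptor Fcgr2b. RNA was sequenced from the cortex of C57BL/6J mice fed a diet with 60% of calories from fat (high-fat) or 6% (control) and given a focal ischemic stroke or a sham operation. The stroke tissue was dissected on day 3 and held the infarct core with a rim of surrounding cortex.

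The 26 libraries fell into 6 groups. After 6 weeks of diet there were 3 control-diet sham, 3 high-fat sham, 4 control-diet stroke and 6 high-fat stroke libraries. After 15 weeks there were 4 stroke libraries on the control diet and 6 on the high-fat diet, and no sham library of that feeding time was analysed here. All mice were of 1 strain, and no group carries an engineered allele in the labels. Age, sex and the day of sham dissection were not given in the sources used here. Nor was it stated that each library came from a separate animal, so a p-value here measures only how much these libraries vary. That spread was estimated for each gene over all 26 libraries together, so it is not specific to the groups compared. Replicate numbers follow accession order and name single libraries only.

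Receptors for IgG bind the constant part of antibodies. Fcgr1, Fcgr3 and Fcgr4 have no ITAM of their own and assemble with the Fcer1g chain, whose ITAM is phosphorylated by Src family kinases and then binds Syk. Trem2, which binds lipids and lipoproteins, uses Tyrobp in the same way, and Fcgr2b carries an inhibitory motif (ITIM) that recruits the phosphatase SHIP-1. In the brain these genes are expressed mainly by microglia and by macrophages that enter from the blood. In bulk tissue, more cells of a type and more RNA per cell cannot be told apart.

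In the 100 bases before the RefSeq start (GRCm38.p6), several of these genes share a short purine-rich word that is the core bound by the myeloid factor PU.1, and Fcer1g does not hold it. The promoters are shown to set the letters of the family side by side, and no link between the words and expression was tested. Capitals mark GAGGAA, searched on both strands and so also written TTCCTC, or in Fcgr2b the composite word of PU.1 with IRF factors (GGAA, any 2 bases, GAAA), here on the opposite strand. Each sequence runs 5′ to 3′ on the strand of its gene. The intervals are chr3:96293970-96294069 (minus strand) for Fcgr1, chr1:171059404-171059503 (minus) for the first of both Fcgr3 starts, chr1:171018826-171018925 (plus) for Fcgr4, chr1:170976072-170976171 (minus) for Fcgr2b, chr1:171234350-171234449 (minus) for Fcer1g, chr17:48346301-48346400 (plus) for Trem2 and chr13:52596782-52596881 (plus) for the second of both Syk starts. The table used holds 9 starts for 7 of the 8 genes, and Tyrobp was not searched.
Fcgr1: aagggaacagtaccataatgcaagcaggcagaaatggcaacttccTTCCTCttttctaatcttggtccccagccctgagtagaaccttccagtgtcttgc
Fcgr3: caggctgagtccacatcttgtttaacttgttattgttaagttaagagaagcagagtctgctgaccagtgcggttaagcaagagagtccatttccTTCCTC
Fcgr4: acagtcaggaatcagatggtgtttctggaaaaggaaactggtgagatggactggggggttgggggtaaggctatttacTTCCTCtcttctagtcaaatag
Fcgr2b: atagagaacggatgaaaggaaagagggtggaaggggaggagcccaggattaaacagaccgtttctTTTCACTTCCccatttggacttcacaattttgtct
Fcer1g: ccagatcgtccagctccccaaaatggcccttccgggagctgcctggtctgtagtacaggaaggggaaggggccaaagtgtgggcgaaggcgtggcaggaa
Trem2: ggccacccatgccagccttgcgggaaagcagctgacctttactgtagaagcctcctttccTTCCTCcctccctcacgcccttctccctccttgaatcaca
Syk: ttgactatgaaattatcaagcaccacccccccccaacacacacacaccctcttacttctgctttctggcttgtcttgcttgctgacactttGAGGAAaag

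GAGGAA was found in 6 of these 9 starts, against 9.82% of 32851 starts of all genes in windows of the same length. The 6 are those of Fcgr1, Fcgr4, Trem2, the second Syk start and both Fcgr3 starts, whose windows overlap and share the match. The composite word was found in Fcgr2b alone among these 9 starts, against 0.91% of all starts. None of these 9 windows held both words. They were chosen with the sequences in view, and a match is a description of the letters and not of binding.

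Gene counts per library ran from 11400882 to 16962682. Two-sided tests used edgeR's quasi-likelihood fit over all 26 libraries with Benjamini-Hochberg adjustment over 16325 genes, and "called" means an adjusted p under 0.05. Levels are CPM, reads of a gene relative to the library's total, with TMM scaling. All 8 genes passed the filter on low counts, Fcgr4 only through the stroke libraries, since its sham libraries held 1 to 6 counts each. Of the 20 stroke libraries, 2 stood apart: 15-week high-fat replicate 1 and 15-week control replicate 3 had low levels of these genes for a stroke library. Fcgr4 was 0.740 and 0.804 CPM in these libraries, against 3.42 to 13 CPM in the other 18 and at most 0.415 CPM in sham. The 10 microglia markers summed to 445 and 460 CPM in them, above the sham sums (309 to 358 CPM) and below those of the remaining stroke libraries (593 CPM or more). Since all groups share the estimate of each gene's spread, these 2 libraries also enter the 6-week and sham tests.

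Most of these genes were higher after stroke at 6 weeks on both diets, Fcgr4 and Fcgr1 by the largest fold and Syk by the smallest. On the control diet 7 of the 8 genes were called higher, where 5.1% of all genes tested were called higher. On the high-fat diet 8 of 8 were called higher, against 14.2% of all genes. For all 8 genes every stroke library lay above every sham library on both diets, a pattern seen in 14.9% of genes on the control diet and 15.8% on the high-fat diet. The median log2 fold change over the 8 genes was 1.96 on the control diet and 2.51 on the high-fat diet, where the median over all genes was 0.00 and -0.02. These counts and medians include Fcgr4, which reached the low-count filter only through the stroke libraries. Fcgr4 could hardly be tested without being higher in stroke, so its calls are descriptions. All 8 genes were chosen with earlier results of these data known, so the shares of all genes are context and not a test.

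**Figure D1:**
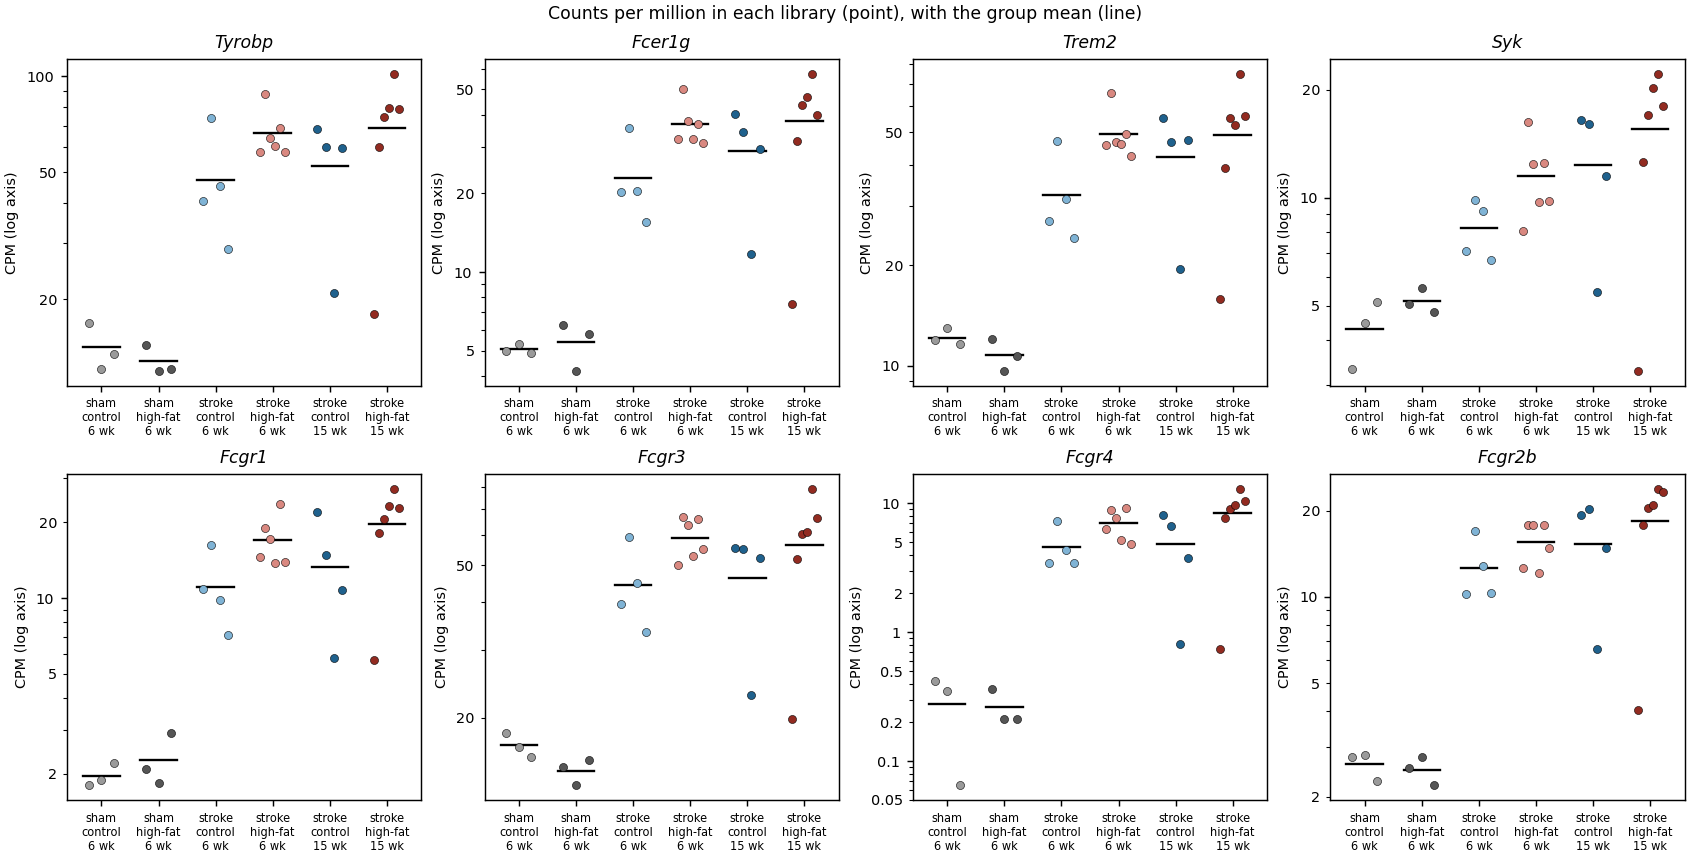
CPM of each gene (log axis) in each of the 26 libraries by group, 1 point per library, with the group's mean as a line. Each stroke library at 6 weeks lies above each sham library for all 8 genes, and in each 15-week group the same library lies lowest for all 8 genes.

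Tyrobp (chr7:30413760-30417585 in GRCm38) encodes the adaptor that pairs with Trem2 and many other receptors. It measured 16.9, 12.1 and 13.5 CPM in control-diet sham and 40.6, 74.1, 45.3 and 28.8 CPM in control-diet stroke. On the high-fat diet it measured 14.3, 11.9 and 12.1 CPM in sham and 57.8 (lowest), 62.4 (median) and 88.3 CPM (highest) in stroke. No stroke library reached down to the sham range on either diet, and high-fat replicate 2 was the highest at 6 weeks. The fitted increase was 3.34-fold on the control diet (log2 1.74, SE 0.44, adjusted p = 0.0197) and 5.19-fold on the high-fat diet (log2 2.37, SE 0.43, adjusted p = 0.000757).

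Fcer1g (chr1:171229572-171234365) encodes the other ITAM adaptor, used by the activating Fc receptors and by several lectins. Its levels were 4.98, 5.32 and 4.92 CPM in control-diet sham and 20.3, 35.7, 20.4 and 15.5 CPM in control-diet stroke. High-fat sham libraries gave 6.27, 4.18 and 5.80 CPM, and high-fat stroke libraries 31.1 (lowest), 34.6 (median) and 50.2 CPM (highest). The gap between the groups was wide on both diets, with the lowest stroke library at 15.5 CPM and the highest sham library at 6.27 CPM. Fcer1g rose 4.54-fold on the control diet (log2 2.18, SE 0.50, adjusted p = 0.0126) and 6.78-fold on the high-fat diet (log2 2.76, SE 0.48, adjusted p = 0.000566).

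Trem2 (chr17:48346401-48354147) encodes the lipid receptor of microglia and macrophages. Control-diet sham libraries held 11.9, 12.9 and 11.6 CPM and control-diet stroke libraries 27.2, 47.1, 31.6 and 24.1 CPM. High-fat sham libraries held 12, 9.64 and 10.7 CPM, and high-fat stroke libraries 42.5 (lowest), 46.6 (median) and 65.6 CPM (highest). The sham libraries were tightly grouped, and all stroke libraries were above them. Trem2 rose 2.68-fold on the control diet (log2 1.42, SE 0.38, adjusted p = 0.0261) and 4.58-fold on the high-fat diet (log2 2.20, SE 0.37, adjusted p = 0.000498).

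Syk (chr13:52583173-52648792) encodes the kinase that docks on phosphorylated ITAMs, and it moved least. It measured 3.32, 4.48 and 5.11 CPM in control-diet sham and 7.10, 9.87, 9.16 and 6.71 CPM in control-diet stroke. On the high-fat diet the values were 5.04, 5.60 and 4.81 CPM in sham and 8.09 (lowest), 11.1 (median) and 16.2 CPM (highest) in stroke. The groups did not overlap, yet the distance between them was small beside the spread of the stroke libraries. On the control diet the difference was 1.90-fold and not called (log2 0.93, SE 0.43, adjusted p = 0.199). On the high-fat diet it was 2.22-fold (log2 1.15, SE 0.40, adjusted p = 0.04). That call was lost, at adjusted p from 0.0635 to 0.12, without any 1 of stroke replicates 2, 3 and 5 or sham replicates 1, 2 and 3, and at 0.114 without the 2 libraries high in choroid plexus genes (stroke replicate 6 and sham replicate 2). The control-diet difference was called when only its own 2 groups were fitted (adjusted p = 0.00562).

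Fcgr1 (chr3:96282909-96293969), the high-affinity IgG receptor, was at 1.80, 1.89 and 2.20 CPM in control-diet sham and at 10.8, 16.2, 9.86 and 7.11 CPM in control-diet stroke. In high-fat sham it was at 2.09, 1.84 and 2.90 CPM, and in high-fat stroke at 13.8 (lowest), 15.8 (median) and 23.7 CPM (highest). Every stroke library exceeded the sham libraries by a wide margin. Fcgr1 rose 5.59-fold on the control diet (log2 2.48, SE 0.48, adjusted p = 0.00541) and 7.44-fold on the high-fat diet (log2 2.90, SE 0.45, adjusted p = 3e-04).

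Fcgr3 (chr1:171051174-171064935), a low-affinity activating IgG receptor, was at 18.3, 16.8 and 15.8 CPM in control-diet sham and at 39.6, 59.3, 44.8 and 33.4 CPM in control-diet stroke. High-fat sham libraries gave 14.9, 13.3 and 15.5 CPM, and high-fat stroke libraries 50.1 (lowest), 59.2 (median) and 66.7 CPM (highest). The groups were apart on both diets. The increase was 2.61-fold on the control diet (log2 1.39, SE 0.33, adjusted p = 0.0149) and 4.04-fold on the high-fat diet (log2 2.02, SE 0.32, adjusted p = 0.000362). Fcgr3 shares 3.53% of its 100-base words with Fcgr2b, so a small part of its reads could have been lost or assigned either way.

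Fcgr4 (chr1:171018920-171029761), an activating receptor for IgG2a and IgG2b in the mouse, went from near absence to a level above that of Syk per length in stroke. It measured 0.415, 0.350 and 0.0647 CPM in control-diet sham (12 counts in all) and 3.45, 7.32, 4.31 and 3.42 CPM in control-diet stroke. High-fat sham libraries gave 0.360, 0.213 and 0.212 CPM (11 counts in all), and high-fat stroke libraries 4.83 (lowest), 6.99 (median) and 9.17 CPM (highest). Every stroke library at 6 weeks lay far above the highest sham library. The fitted change was 16.6-fold on the control diet (log2 4.05, SE 0.86, adjusted p = 0.00833) and 26-fold on the high-fat diet (log2 4.70, SE 0.83, adjusted p = 0.000597). From the summed counts the ratios were 17.3 (95% exact interval 9.73 to 33.9) and 27.0 (15.0 to 54.3), intervals that cover counting error only. Fcgr4 reached the low-count filter only through the stroke libraries, so its calls on both diets are descriptions.

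Fcgr2b (chr1:170958617-170976547), the inhibitory receptor that lies beside Fcgr3 and Fcgr4 in the chromosome 1 cluster, rose as well. It measured 2.77, 2.80 and 2.27 CPM in control-diet sham and 10.3, 17.0, 12.9 and 10.3 CPM in control-diet stroke. High-fat sham libraries gave 2.52, 2.77 and 2.19 CPM, and high-fat stroke libraries 12.2 (lowest), 16.3 (median) and 17.9 CPM (highest). The sham values lay within a narrow band, and the stroke values were all above it. The increase was 4.83-fold on the control diet (log2 2.27, SE 0.45, adjusted p = 0.00583) and 6.21-fold on the high-fat diet (log2 2.64, SE 0.43, adjusted p = 0.000395). Fcgr2b shares 2.38% of its 100-base words with other genes, Fcgr3 among them, and has an antisense neighbour, Gm38204, and the strand setting of the counting was not given in the sources used here.

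The control-diet calls rest on few libraries. The count of 7 fell to 3 without stroke replicate 2, the highest stroke library of that group for all 8 genes, to 3 without sham replicate 1 or 2, and to 2 without sham replicate 3. Fcgr1 and Fcgr2b were called in each of these fits, and all 8 log2 fold changes stayed positive. Trem2 alone was also lost without stroke replicate 3 (adjusted p = 0.0533 by edgeR). How many of all genes were called in these fits was not counted, so the fall cannot be read as particular to these 8 genes. These fits took each gene's spread from all groups. With no library left out and other tools, filters or groups, 46 of 48 gene results kept their call status. Trem2 was lost with no filter on low counts, and Syk was gained when only its own 2 groups were fitted.

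**Figure D2:**
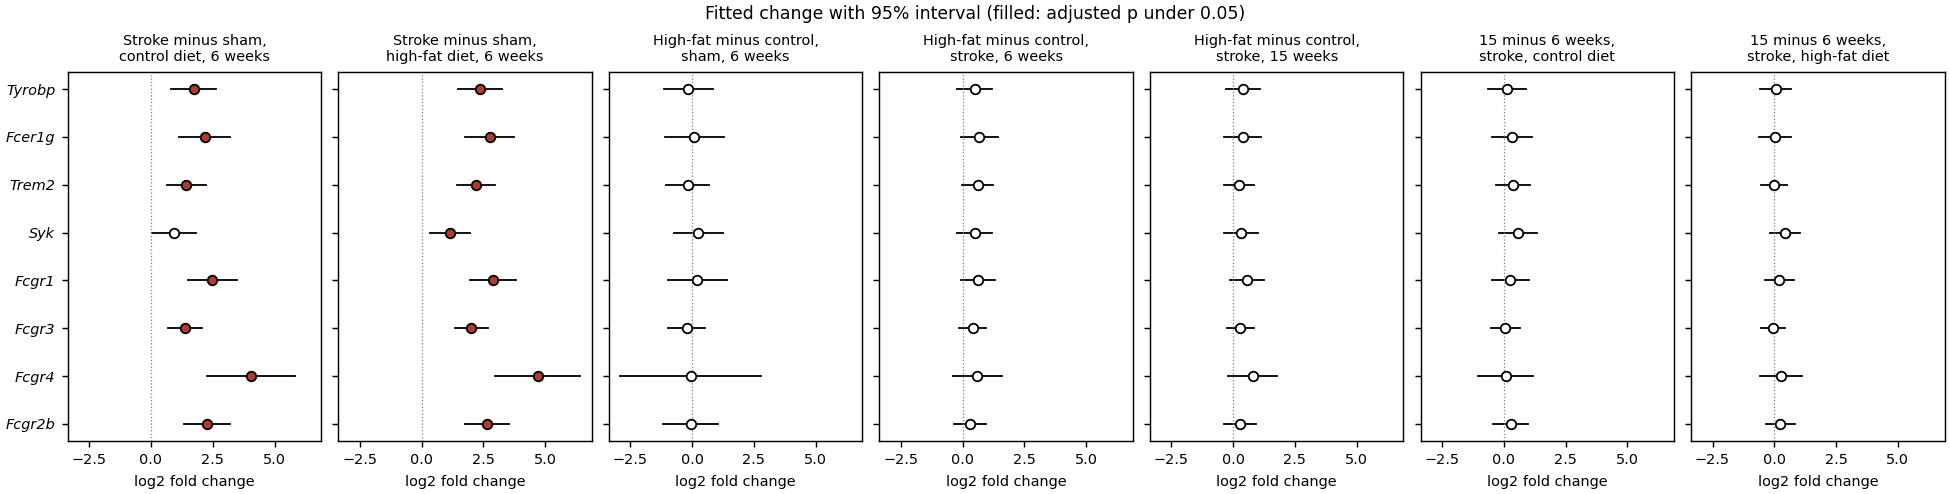
Fitted log2 fold change of each gene (points) with its 95% interval (lines) in 7 comparisons; filled points have an adjusted p under 0.05. The stroke panels hold the filled points, 7 on the control diet and 8 on the high-fat diet, and the intervals of all 8 genes span 0 in each diet and feeding-time panel.

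Per kilobase of exon, which allows genes to be set beside each other, Tyrobp was the highest of the 8 in every group: 21.2 ± 3.69 CPM per kb in control-diet sham (SD, n = 3) and 99.4 ± 17.4 in high-fat stroke at 6 weeks (SD, n = 6). In that stroke group it was followed by Fcer1g at 42 ± 8.16, Fcgr3 at 34.0 ± 4.16, Trem2 at 9.99 ± 1.66, Fcgr1 at 6.57 ± 1.5, Fcgr4 at 5.58 ± 1.48, Fcgr2b at 2.68 ± 0.467 and Syk at 1.22 ± 0.308 CPM per kb. Fcer1g and Fcgr3 overlapped in that order, as did Fcgr1 and Fcgr4, and the other neighbours did not overlap by library except Trem2 and Fcgr1. In control-diet sham the order was Tyrobp, Fcgr3 at 9.76 ± 0.716, Fcer1g at 5.80 ± 0.244, Trem2 at 2.45 ± 0.143, Fcgr1 at 0.758 ± 0.0815, Syk at 0.460 ± 0.0971, Fcgr2b at 0.451 ± 0.0516 and Fcgr4 at 0.22 ± 0.148 CPM per kb. Syk and Fcgr2b overlapped in sham, and the other neighbours did not. Fcer1g thus stood below Fcgr3 in sham and above it in stroke by mean, and Fcgr4 moved from last to above Fcgr2b and Syk. The exon lengths come from GENCODE M21 models, in which all exons of a gene are joined (667 bases for Tyrobp, 9362 for Syk), so the order depends on those models.

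The mixture within the family shifted with stroke, as ratios of counts within a library show (a description, with no test). Fcgr2b counts per Fcgr3 count were 0.154 ± 0.0118 in control-diet sham and 0.286 ± 0.0206 in control-diet stroke (SD, n = 3 and 4), and 0.173 ± 0.0331 and 0.262 ± 0.0182 with high-fat feeding (SD, n = 3 and 6). No stroke library at 6 weeks was below 0.231 and no sham library above 0.207. Against the sum of the 3 activating receptors, Fcgr2b went from 0.136 ± 0.0108 to 0.212 ± 0.0190 on the control diet and from 0.148 ± 0.0310 to 0.187 ± 0.0132 on the high-fat diet, where 1 sham library (0.180) lay within the stroke range (0.170 to 0.202). Fcer1g counts per Tyrobp count were 0.367 ± 0.0721 and 0.423 ± 0.0654 in control and high-fat sham and 0.49 ± 0.0366 and 0.553 ± 0.0223 in the matching stroke groups. Gene length is the same in every library and does not enter a change in such a ratio.

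Markers of microglia and of blood-derived cells moved with these genes, and their part in the result was not tested. All 10 microglia markers were called higher with stroke on both diets. Their summed level was 334 to 350 CPM in control-diet sham and 593 to 926 CPM in control-diet stroke, and 309 to 358 and 780 to 991 CPM on the high-fat diet. The markers of monocytes and infiltrating macrophages were called higher for 4 of 8 on the control diet and 8 of 8 on the high-fat diet. They summed to 31.3 to 38.0 CPM in control-diet sham and 48.7 to 77.6 CPM in control-diet stroke, and 33.3 to 34.4 and 58.2 to 97.4 CPM on the high-fat diet. Most of that sum is Vcan, which other brain cells also express. Ccr2, the chemokine receptor of inflammatory monocytes, was 0.524 ± 0.159 CPM in control-diet sham and 5.98 ± 3.59 CPM in control-diet stroke. Ms4a4c, Ly6c2 and F10 were at 0 in all high-fat sham libraries. Markers near 0 in sham could hardly be tested without being higher in stroke. How many markers reached the low-count filter that way was not counted, so the marker calls are descriptions. Of all genes, 5.1% were called higher on the control diet and 14.2% on the high-fat diet.

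Border macrophage markers summed to 17.4 to 21.3 CPM in control-diet sham and 31.4 to 43.8 CPM in control-diet stroke, with 1 of 8 called higher on the control diet and 5 of 8 on the high-fat diet. Neutrophil markers summed to 4.70 to 5.57 CPM in control-diet sham and 9.87 to 15.2 CPM in control-diet stroke, with 0 and 3 of 5 tested called higher. Of the 8 neutrophil markers, 3 were at 0 in all high-fat sham libraries, and the same limit on the calls holds. Of the mast cell and basophil markers, which bear on Fcer1g, Kit is also a neuronal gene, and Fcer1a, the IgE-binding chain, was at 0 in all groups but high-fat stroke at 6 weeks, where its mean was 0.0096 CPM.

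Other tissue markers moved on the high-fat diet as well, and their part in the result was not tested. Red blood cell markers were called higher for 5 of 5 on the high-fat diet, where they summed to 78.3 to 109 CPM in sham and 163 to 307 CPM in stroke, and for 0 of 5 on the control diet (132 to 159 and 154 to 220 CPM). Endothelial markers were called higher for 3 of 6 on the high-fat diet (140 to 174 and 190 to 255 CPM) and 0 of 6 on the control diet (155 to 172 and 188 to 204 CPM). Excitatory neuron markers were called lower for 3 of 6 on the high-fat diet (1897 to 2343 and 1539 to 1738 CPM) and 0 of 6 on the control diet (1830 to 2023 and 1455 to 1784 CPM). Over all 16325 genes, 2324 were called higher and 1445 lower on the high-fat diet, and 833 and 420 on the control diet.

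Set against the mean log2 CPM of the 10 microglia markers, 7 of the 8 genes rose further with stroke than those markers, and Syk did not (a description, with no test). The stroke minus sham difference of that relative level was 2.63 on the log2 scale for Fcgr4 on the control diet and 3.02 on the high-fat diet. It was 1.40 and 1.71 for Fcgr1, 1.24 and 1.45 for Fcgr2b, and 1.13 and 1.62 for Fcer1g. Smaller values were found for Tyrobp (0.71 and 1.24), Trem2 (0.42 and 1.06) and Fcgr3 (0.40 and 0.89). For Syk the relative level differed by -0.03 and -0.01, so that its change with stroke was of the size of the marker mean's.

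**Figure D3:**
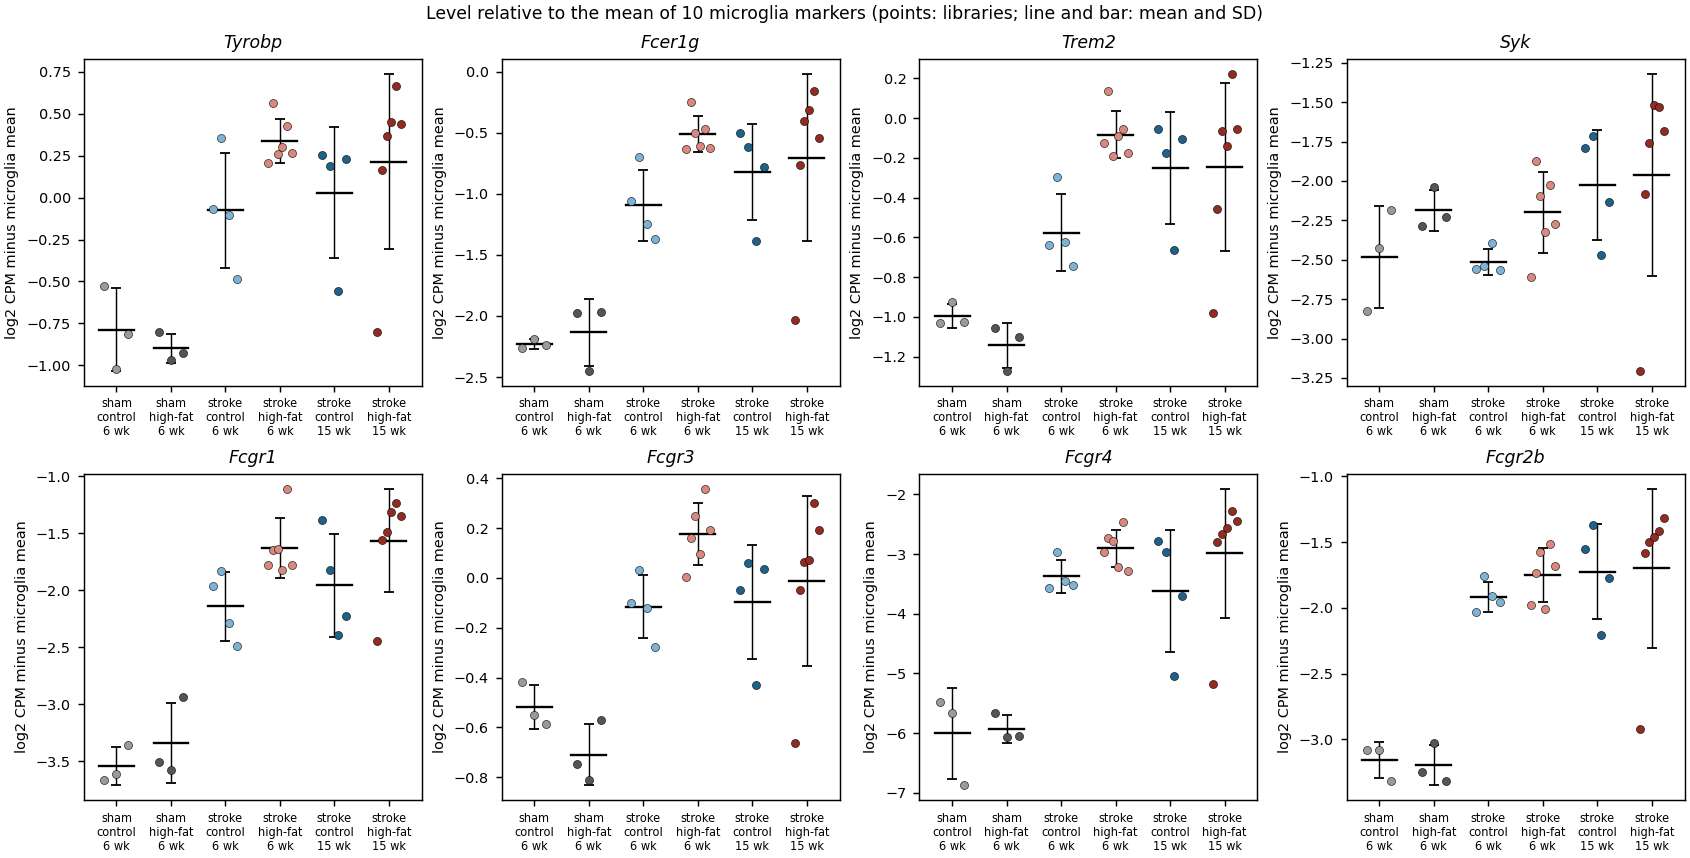
Log2 CPM of each gene minus the mean log2 CPM of 10 microglia markers in the same library, by group; lines and bars are the mean and SD over libraries. For 7 genes the 6-week stroke libraries lie above the sham libraries on this relative scale, and for Syk they overlap.

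The diet comparison asked whether the high-fat diet altered these genes. None of the 8 was called in sham or in stroke at 6 or 15 weeks, and 0% of all genes was called in each of these 3 comparisons. None reached an unadjusted p under 0.05 either, which 6.99% of genes did in 6-week stroke, 7.96% in 15-week stroke and 4.79% in sham. In 6-week stroke all 8 log2 differences were above 0, from 0.30 to 0.68, with a median of 0.54 against -0.01 over all genes, and the groups overlapped for each gene.

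Among the adaptors in 6-week stroke, Fcer1g averaged 23.0 ± 8.76 CPM on control diet against 36.8 ± 7.13 CPM with high-fat feeding (SD, n = 4 and 6; log2 difference 0.68, 95% interval -0.08 to 1.43). Tyrobp averaged 47.2 ± 19.2 and 66.3 ± 11.6 CPM (0.49, -0.22 to 1.19). Control-diet replicate 2 lay among the high-fat libraries for both genes, and the other 3 control-diet libraries lay below all 6. Trem2 averaged 32.5 ± 10.2 and 49.4 ± 8.22 CPM (0.60, -0.01 to 1.22), the interval that came nearest to leaving out 0, with an adjusted p of 0.667 in edgeR's quasi-likelihood test. Syk averaged 8.21 ± 1.54 and 11.5 ± 2.88 CPM (0.48, -0.22 to 1.19).

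Among the receptors in the same comparison, Fcgr1 averaged 11 ± 3.83 and 17.0 ± 3.87 CPM (0.62, 95% interval -0.06 to 1.31). Fcgr3 averaged 44.3 ± 11.1 and 58.9 ± 7.22 CPM (0.41, -0.13 to 0.95). Fcgr4 averaged 4.63 ± 1.84 and 7.01 ± 1.86 CPM (0.59, -0.40 to 1.59). The inhibitory Fcgr2b had the smallest difference, 12.6 ± 3.16 against 15.5 ± 2.70 CPM (0.30, -0.36 to 0.96). The upper bounds leave room for differences of more than 1 on the log2 scale in 6 of the 8 genes, all but Fcgr2b and Fcgr3. Microglia and monocyte markers moved the same way without being called, with median log2 differences of 0.17 and 0.89. Such movement was not limited to phagocyte lists or to 1 direction. The median was 1.07 over the choroid plexus markers and -0.34 over the 2 T and NK cell markers tested, none of them called.

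In sham cortex the 8 genes showed no common direction with diet: 3 of 8 log2 differences were above 0 and the median was -0.06. The largest in size were Syk at 0.26 (95% interval -0.72 to 1.23) and Fcgr3 at -0.22 (-0.96 to 0.53). For Fcgr3 alone among the 8 the groups did not overlap, the 3 high-fat libraries (13.3 to 15.5 CPM) lying below the 3 control libraries (15.8 to 18.3 CPM), which happened in either direction for 11.7% of all genes. The SE for Fcgr3 was 0.36, with the spread taken over all 26 libraries. Its log2 SD was 0.10 in control-diet sham and 0.11 in high-fat sham. For Fcgr4 the interval ran from -2.90 to 2.78, at 1 to 6 counts per library. The test of whether the stroke effect itself differed between diets called 0 of 8 genes, as it called 0% of all genes, and 0 of 8 had an unadjusted p under 0.05 (5.6% of all genes). The high-fat minus control differences in the stroke effect were all above 0, from 0.23 for Syk to 0.77 for Trem2 (95% interval -0.29 to 1.84, adjusted p = 0.832).

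After 15 weeks the stroke libraries were more scattered, because of the pair that stood apart. Tyrobp measured 68.3, 60.1, 21 and 59.7 CPM on the control diet and 18.0 (lowest), 76.8 (median) and 102 CPM (highest) on the high-fat diet. Fcer1g measured 40.3, 34.3, 11.7 and 29.5 CPM on the control diet and 7.57, 41.8 and 57.3 CPM (lowest, median and highest) on the high-fat diet. In both, the lowest value of each diet was the library that stood apart and the diets overlapped.
Trem2 gave 55.1, 46.7, 19.5 and 47.3 CPM on the control diet and 15.9, 54.1 and 74.9 CPM (lowest, median, highest) on the high-fat diet. Syk gave 16.5, 16, 5.47 and 11.5 CPM and 3.29, 17.5 and 22.1 CPM. For Syk, whose 6 sham libraries held 3.32 to 5.60 CPM, the 15-week high-fat library that stood apart was just below the sham range and the control-diet one was within it. For Trem2 both were above the sham range.

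Among the receptors at 15 weeks, Fcgr1 measured 21.9, 14.8, 5.79 and 10.8 CPM on the control diet and 5.67, 21.7 and 27.2 CPM (lowest, median, highest) on the high-fat diet. Fcgr3 measured 55.3, 55, 22.9 and 52.2 CPM and 19.8, 60.8 and 79.1 CPM. Both genes stayed above their sham libraries in all 10 of these libraries. Fcgr4 measured 8.17, 6.65, 0.804 and 3.8 CPM and 0.740, 9.40 and 13 CPM. Fcgr2b measured 19.4, 20.4, 6.59 and 14.8 CPM and 4.03, 20.7 and 23.9 CPM. Fcgr4 had the widest spread of the 8 genes, 17.6 times from the lowest to the highest high-fat library.

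All 8 high-fat minus control differences at 15 weeks were above 0 and none was called. They ran from 0.22 for Trem2 (95% interval -0.39 to 0.82) to 0.80 for Fcgr4 (-0.19 to 1.79, adjusted p = 0.685), with a median of 0.36. Without both libraries that stood apart Fcgr4 differed by 0.70 (SE 0.27, adjusted p = 0.511) and Fcgr1 by 0.52 (SE 0.23, adjusted p = 0.543), and 0 of 8 were called. The test of whether the diet difference itself changed between 6 and 15 weeks called 0 of 8 (0% of all genes), and 0 of 8 had an unadjusted p under 0.05 (4.85% of all genes); Trem2 was the farthest from 0, at -0.39 (95% interval -1.25 to 0.47).

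Feeding time was compared within stroke, 15 against 6 weeks, with no 15-week sham to set beside it. None of the 8 genes was called on either diet, while 0.564% of all genes were called on the control diet and 2.35% on the high-fat diet. None had an unadjusted p under 0.05, where 16.8% and 17.7% of all genes did. Syk had the largest difference on both diets, 0.59 on the control diet (95% interval -0.17 to 1.36, adjusted p = 0.428) and 0.44 on the high-fat diet (-0.17 to 1.05, adjusted p = 0.454). The other 7 genes differed by 0.07 (Fcgr3) to 0.38 (Trem2) on the control diet and by -0.06 (Fcgr3) to 0.28 (Fcgr4) on the high-fat diet.

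These values depend on the pair of libraries that stood apart. Without both, Syk was called higher at 15 weeks on the control diet (log2 0.85, SE 0.21, adjusted p = 0.035) and on the high-fat diet (log2 0.66, SE 0.16, adjusted p = 0.016), and Fcgr2b on the high-fat diet (log2 0.47, SE 0.13, adjusted p = 0.0284). In that fit 1.82% of all genes were called higher on the control diet and 5.39% on the high-fat diet. The pair was picked out after its values were seen, and these genes are low in it, so leaving it out raises the 15-week means by construction. In the remaining libraries Syk was 11.5 to 16.5 CPM at 15 weeks and 6.71 to 9.87 CPM at 6 weeks on the control diet. With high-fat feeding it was 12.6 to 22.1 CPM and 8.09 to 16.2 CPM, and the feeding times overlapped.

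The 8 genes moved together from library to library. Over the 20 stroke libraries, with each gene expressed as its log2 CPM deviation from its group mean, Pearson's r between the 28 pairs ran from 0.928 (Fcgr1 with Trem2) to 0.990 (Tyrobp with Trem2). With the 2 libraries farthest from their group means dropped, which are the same 2 that stood apart, it ran from 0.794 to 0.969. The group means were not recomputed and still included these 2 libraries. The other libraries of those groups thus kept a shared offset, which can raise r. That range therefore cannot show how closely the genes moved together without the 2 libraries. The points share a library, its depth and its dissected piece of tissue, and no test is given. In control-diet sham the highest library was 1.08 times the lowest for Fcer1g, 1.12 times for Trem2, 1.16 times for Fcgr3, 1.22 times for Fcgr1, 1.24 times for Fcgr2b, 1.39 times for Tyrobp, 1.54 times for Syk and 6.41 times for Fcgr4, which held 1 to 6 counts per library.

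**Figure D4:**
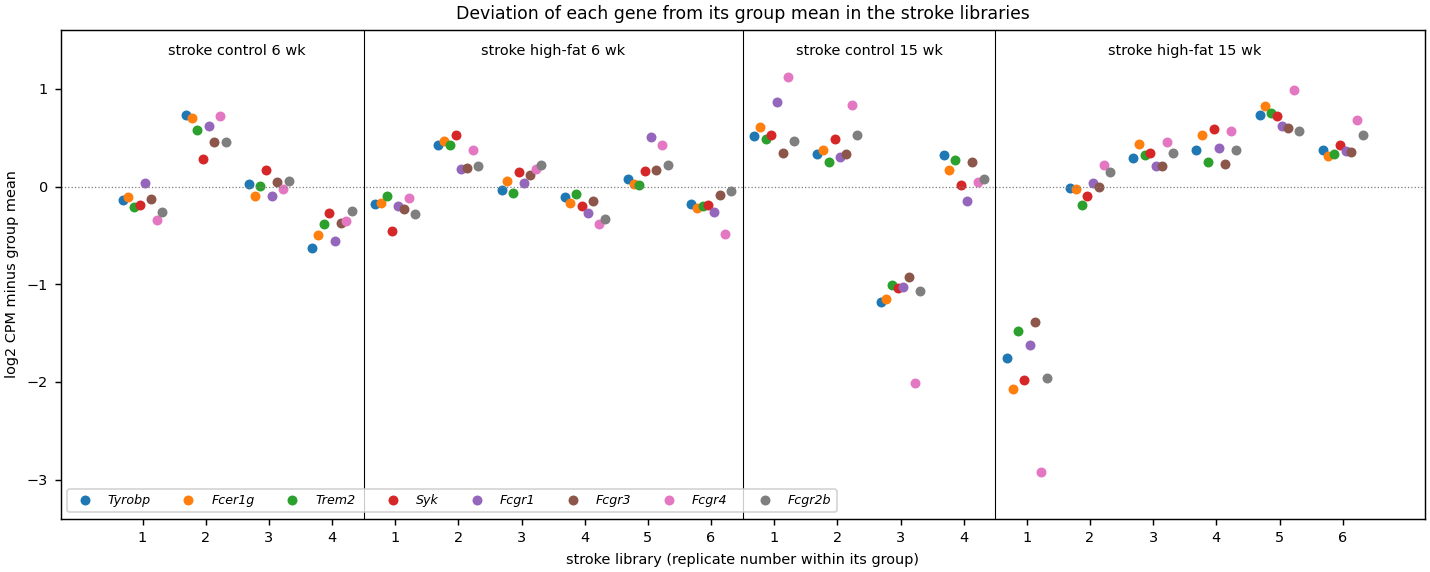
Log2 CPM of each gene minus its group mean (vertical axis) in the 20 stroke libraries (horizontal axis, replicate numbers without order), 1 colour per gene. The 8 genes lie close together within each library, and 15-week control replicate 3 and high-fat replicate 1 lie lowest, at a mean deviation of -1.18 and -1.90.

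The genes with the most similar pattern over the same 20 libraries were ranked by Pearson's r of the deviations (mean CPM of at least 1). Some are known phagocyte genes, such as Cd68 and C1qb, and the cell type behind the others was not tested. For Tyrobp the nearest genes were Ctsd (r = 0.995), a lysosomal protease, Cd68 (0.994), a lysosomal membrane protein of macrophages, and C1qb (0.993), a complement subunit. For Trem2 they were Aldh3b1 (0.992), C1qc (0.989) and C1qa (0.987). For Fcer1g they were Ifi30 (0.991), Vav1 (0.990), which relays signals after Syk, and Arpc1b (0.989), an actin nucleation subunit. Syk was nearest to Tgm2 (0.987), Ctsh (0.987) and Emp3 (0.986).

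Among the receptors, Fcgr1 was nearest to Ripk1 (0.974), Lpxn (0.974) and H2-Ab1 (0.974), an MHC class II chain. Fcgr3 was nearest to Cd300c2 (0.991), Cd68 (0.990) and Npl (0.990). Fcgr4 was nearest to Ncf1 (0.986), a subunit of the phagocyte oxidase, Pik3ap1 (0.984) and Tlr1 (0.984). Fcgr2b was nearest to C3ar1 (0.985), the C3a receptor, Ms4a6d (0.983) and Ms4a6c (0.980). These coefficients rest in part on the 2 libraries that stood apart.

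The rest of the pathway was described from 7 lists of genes, set against the 5.1% and 14.2% of all genes called higher with stroke on the control and high-fat diets. The lists were also chosen with earlier results of these data known, so that contrast is not a test. Many listed genes are near 0 in sham and reached the low-count filter (0.686 CPM in at least 3 libraries) only through the stroke libraries, as 7.64% of all tested genes did, so they could hardly be tested without being higher in stroke. Their calls and those of the lists they fill are therefore descriptions. A list of 22 other receptors and signalling chains, most using ITAM adaptors or an ITAM-like motif, also held the adaptor Hcst, which has no ITAM. Of the 22, 14 were tested, Hcst among them, 11 of them through the stroke libraries only. Of the 14, 4 were called higher on the control diet and 12 on the high-fat diet. Clec7a (Dectin-1), a fungal glucan receptor, held 32 counts in all 6 sham libraries together and averaged 0.455 ± 0.153 CPM in control-diet sham and 10.1 ± 5.64 CPM in control-diet stroke (SD, n = 3 and 4). Its fitted log2 change was 4.45 (SE 0.78, adjusted p = 0.00345) on the control diet and 5.31 (SE 0.82, adjusted p = 3e-04) on the high-fat diet. The Tyrobp-coupled lectins Clec5a (1.28 and 1.61) and Siglech (0.63 and 0.62), the latter also among the microglia markers, and Cd300ld (5.01 and 5.04, with 5 sham counts in all) were called on both diets. Clec5a and Siglech reached the filter in the sham libraries too, and Clec7a and Cd300ld did not.

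Of 25 Src family kinases and relays after Syk, all were tested, 1 of them through the stroke libraries only, and 11 were called higher on the control diet and 19 on the high-fat diet. The median log2 change was 0.80 and 1.27. Btk, a kinase activated after Syk, changed by 1.95 and 2.56, the PI3K adaptor Pik3ap1 by 2.39 and 2.96, the GTPase Rac2 by 1.64 and 2.80, and the adaptor Lat2 by 2.23 and 3.25 (all called on both diets). Of the inhibitory side, 22 of 25 ITIM receptors and phosphatases were tested, 9 of them through the stroke libraries only, and 12 were called higher on the control diet and 16 on the high-fat diet. Lair1, an inhibitory collagen receptor, rose by 1.16 and 1.47, the sialic acid receptor Cd33 by 0.93 and 1.62, Pilra (25 sham counts in all, below the filter there) by 2.69 and 2.92, and Slamf9, a SLAM family receptor not known to carry an ITIM, by 2.39 and 2.87. Activating and inhibitory lists both held called genes, none of them lower. Genes that reached the filter only through the stroke libraries could hardly have been called lower, so their direction is not a result.

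**Figure D5:**
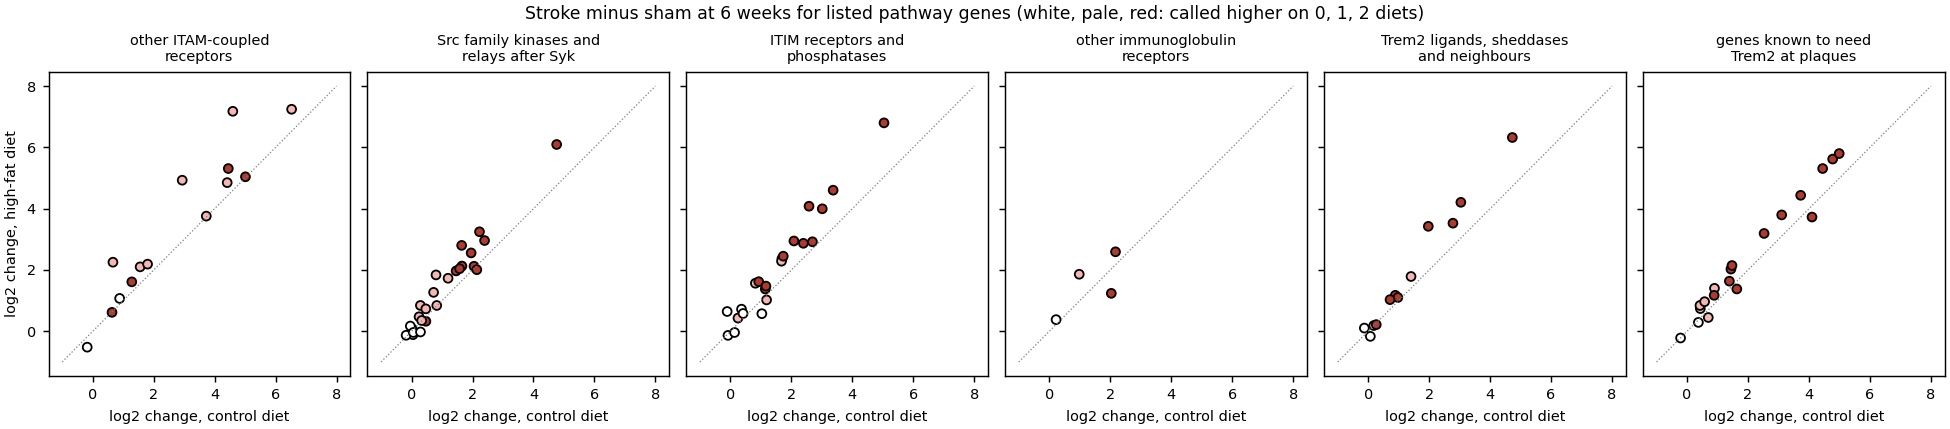
Stroke minus sham log2 fold change on the control diet (horizontal axis) and the high-fat diet (vertical axis) for the tested genes of 6 pathway lists, with the line of equal change dotted. Points are white, pale or red where called higher on 0, 1 or 2 diets, and called genes are found in each list.

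Of 12 other immunoglobulin receptors 4 passed the filter, Fcrl1 through the stroke libraries only. Fcrls, a microglial Fc receptor-like gene, rose by a log2 of 2.17 and 2.59 on the control and high-fat diets, and Fcrl1 by 2.03 and 1.24. Trim21, the cytosolic antibody receptor, was called on the high-fat diet only (1.86, adjusted p = 0.00045; 0.98, adjusted p = 0.0678 on the control diet). Fcgrt, the neonatal Fc receptor, was not called (0.22 and 0.38). Of 10 heavy, light and joining chain genes of immunoglobulins, 9 had an entry, 2 were tested and none was called. The light chain Igkc was at 0.0895 ± 0.0346 CPM in control-diet sham and 0.109 ± 0.0758 CPM in control-diet stroke, far below both tested heavy chains. The source of the heavy-chain counts was not tested, so they are not read as a measure of immunoglobulin expression. Ighm, the IgM heavy chain and no IgG receptor ligand, was 32.4 ± 1.94 CPM in control-diet sham and 31.6 ± 6.71 CPM in control-diet stroke. Ighg2c was 5.97 ± 0.903 and 5.09 ± 0.853 CPM (adjusted p = 0.946 and 0.631 by edgeR). On the high-fat diet Ighm was 30.0 ± 2.14 CPM in sham and 35.3 ± 9.05 CPM in stroke, and Ighg2c 6.41 ± 0.747 and 4.48 ± 1.45 CPM. There 1 of the 2 had an unadjusted p under 0.05 in edgeR's test, as 36.1% of all genes did. Transcripts in the tissue do not measure antibody protein brought by the blood.

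Around Trem2, 12 of 18 ligands, shedding enzymes and related genes were tested, 3 of them (Treml2, Lgals3 and Ms4a7) through the stroke libraries only, with 8 called higher on the control diet and 10 on the high-fat diet. Treml2 rose by a log2 of 1.97 and 3.42, and Lgals3 (galectin-3) by 4.73 and 6.32. The sheddases that cut Trem2 from the surface rose less, Adam17 by 0.72 and 1.03 and Adam10 by 0.26 and 0.22. Csf1 and its receptor Csf1r, on which microglia depend, rose by 0.89 and 1.17 and by 0.97 and 1.10. Ms4a6d (2.78 and 3.53) and Ms4a7 (3.04 and 4.21) were also called on both diets, while the iron carrier Trf (1.79) and the lipoprotein Clu (0.19) were called on the high-fat diet only; the difference between diets was not called for any of these genes. Apoe, a lipoprotein that binds Trem2 and was singled out after its values were seen, was not called (-0.13 and 0.10).

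Of 20 genes known to need Trem2 in plaque microglia, 19 were tested, 3 of them through the stroke libraries only, and 13 were called higher on the control diet and 16 on the high-fat diet (median 1.44 and 1.64). Besides Clec7a, the protease inhibitor Cst7 (12 sham counts in all, below the filter there) rose by 4.78 and 5.62, osteopontin (Spp1) by 4.99 and 5.80, and the sterol enzyme Ch25h by 3.11 and 3.8. Ank, a pyrophosphate transporter singled out after its values were seen, was called lower on the high-fat diet (-0.22, SE 0.07, adjusted p = 0.0205). Clec7a and Csf1 stand in 2 of the lists each. In the other 7 comparisons no listed gene was called except at 15 against 6 weeks on the high-fat diet: Malt1, a signalling protease after Syk, was higher by 0.37 (adjusted p = 0.0266), Adam10 higher by 0.21 (adjusted p = 0.0307) and Clu lower, at -0.20 (adjusted p = 0.0285).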

How the data were processed

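Per the labels' protocols, RNA was extracted from frozen mouse cortex and made into stranded, paired-end total RNA libraries. The submitters' processing notes name Trim Galore, STAR, featureCounts, HTSeq and the build mm9, with no role or version. The authors deposited whole-number read counts per Ensembl gene, 1 table per library, without normalization. Another 5 summary entries held 45.7% to 58.2% of each file's counts and were left out. Names came from GENCODE M21, which matched 37607 of 39179 identifiers. The identifiers are later than those usual for mm9, so the coordinates printed are those of GRCm38, and sequences are those of RefSeq (GRCm38.p6).

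Counts passing filterByExpr (minimum count 10) were scaled by TMM and fitted by edgeR 4.0.16 (quasi-likelihood, robust, R 4.3.3) with 1 mean per group over 26 libraries and 9 contrasts, adjusted over 16325 genes. The SE is the log2 fold change divided by the square root of F. Log2 CPM used a prior count of 2. Fits were tested on simulated data. No pair of libraries within a group differed by counting noise alone: chi-square per gene was 3.34 to 70.2, where counting noise gives about 1. That check cannot tell whether libraries came from the same animal or tissue. Alternatives were DESeq2 1.42.0, RLE scaling, voom in limma 3.58.1, other filters, fewer groups and each library left out. Which listed genes reached the filter in the sham libraries was counted after seeing the data. The genes, lists and motifs were chosen with earlier results of these data known. All 8 genes were named in every comparison. From each list the up to 4 genes with the smallest p for stroke on the high-fat diet were named, with any gene called where a list had 10 or fewer calls, and of cell type markers up to 3.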

Additional observations from a re-analysis of the deposited data

Results flagged for a closer look

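A gap test within each stroke group (highest or lowest library against the rest, 32 checks) picked out 5 values in 3 libraries. Chance gives about 1 in 20 for independent groups, and these checks are not independent, since the 8 genes vary together across libraries. Fcgr2b was 4.03 CPM in 15-week high-fat replicate 1, against 17.8 CPM in the next library. Fcgr3 was 22.9 CPM in 15-week control replicate 3, against 52.2 CPM in the next. In 6-week high-fat replicate 2 Fcer1g was 50.2 CPM, Tyrobp 88.3 CPM and Trem2 65.6 CPM, each above the next library at 37.8, 69.1 and 49.4 CPM. None of the 16 tests of a difference between effects (surgery by diet, diet by feeding time) was called.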

How the results depend on the processing

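No paired analysis was possible because the labels give no replicate numbers shared between groups. With single libraries left out, the count of called genes among the 8 for stroke on the control diet ran from 2 to 7, and on the high-fat diet from 7 to 8. The share of all genes called in those fits was not counted. With no filter on low counts Trem2 was lost on the control diet (adjusted p = 0.0586) and Syk on the high-fat diet (adjusted p = 0.088), and Syk was also lost without the 2 choroid plexus libraries (adjusted p = 0.114), all by edgeR. Without both 15-week libraries that stood apart (chosen after seeing the data) the feeding-time comparison called 1 gene on the control diet and 2 on the high-fat diet. Signs turned only among uncalled differences. With other tools or filters, the high-fat minus control difference of Fcgr4 in sham was 0.43 with voom and 0.078 without the choroid plexus libraries. For 15 against 6 weeks on the high-fat diet, Fcgr3 was 0.052 with voom and 0.13 without both 15-week libraries, and Trem2 was 0.0011 with RLE scaling, 0.087 with voom, 0.014 with the stricter filter and 0.18 without both 15-week libraries. Leaving out 1 library, the ranges that cross 0 were as follows. For diet in sham Fcer1g ran from -0.0013 to 0.26, Fcgr2b from -0.14 to 0.021 and Fcgr4 from -0.52 to 0.36, and for diet at 15 weeks Trem2 from -0.0099 to 0.40. For feeding time on the control diet Fcgr1 ran from -0.067 to 0.55, Fcgr3 from -0.046 to 0.32, Fcgr4 from -0.28 to 0.45 and Tyrobp from -0.029 to 0.47. On the high-fat diet Fcer1g ran from -0.11 to 0.25, Fcgr3 from -0.17 to 0.11, Trem2 from -0.16 to 0.17 and Tyrobp from -0.081 to 0.25. For the diet by feeding time difference Fcgr1 ran from -0.34 to 0.27, Fcgr2b from -0.30 to 0.17, Fcgr3 from -0.37 to 0.038, Fcgr4 from -0.16 to 0.55, Syk from -0.42 to 0.044 and Tyrobp from -0.42 to 0.10. The cause was not tested. A fit of the sham groups alone gave no value for Fcgr4, which did not pass the filter there. At 1 to 6 counts per sham library, the level of Fcgr4 in sham is poorly known.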
